A study of Homo sapiens with 8 samples.

Results

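Divergent transcripts are long noncoding RNAs that start at the promoter of a protein-coding gene and run away from it on the opposite strand, and the naming system marks them with the partner's symbol followed by -DT. GENCODE release 44 listed 589 lncRNA genes of this name, of which 588 had a line in the count files and 503 had a read in at least 1 library. The members described here were the 147 with a mean of 0.5 CPM (reads of a gene scaled to a common total of reads assigned to genes) or more over the 8 libraries, out of 60675 genes counted. They were selected on that mean level, so their levels are given as a description, and the other 441 counted -DT genes fell under the threshold. Every member lay on the strand opposite to a protein-coding partner, and all 147 had a read in every library.

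Most mammalian promoters fire in both directions. RNA polymerase that leaves in the upstream direction usually terminates early, through early polyadenylation signals, the Integrator complex and a lack of U1 snRNP binding, and the short RNA is destroyed by the nuclear exosome. Some divergent RNAs escape, become spliced and polyadenylated, and are the ones that poly(A)-selected libraries can hold. Few of them have a known function.

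The RNA came from the pancreatic cancer line Panc10.05, a long-established human line, as 8 libraries in 4 groups of 2. Parental cells were untreated or received 2 µM indisulam for 18 h, and a derivative line that had been grown under rising doses until it resisted the drug was either held on 2 µM indisulam without a break or taken off it (resistant untreated). Line and kind of exposure thus changed together, and their parts in a difference between the lines cannot be told apart. Indisulam is an aryl sulfonamide that recruits RBM39, a splicing factor, to the DCAF15 ubiquitin ligase, and RBM39 is then degraded. The resistant line is a single selected line, the growth notes of the labels name A549 where titles and cell line field name Panc10.05, and the study calls its paired libraries technical replicates, so p-values measure the spread between these libraries. The libraries held 65266253 to 108002436 reads assigned to genes, which put 3 reads at 0.0278 to 0.0460 CPM. All 9 ductal epithelial markers were present, summing to 6404 to 12386 CPM, with KRT8 the highest. Markers of lung, acinar, endocrine, leukocyte and endothelial cells each stayed under 1 CPM in every library. Those of fibroblasts summed to at most 4.03 CPM. The markers were not set against A549 cells, so they do not decide between the cell names of the labels. Reads carried no molecular identifiers, so depth bounds counting error only, and in bulk RNA fewer expressing cells and less RNA per cell cannot be told apart.

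The promoters of 8 members are shown to let a reader see how the shared start regions are built. For the drug in parental cells and for the lines off the drug, they belong to the 2 named members of largest rise and the 2 of largest fall for which the promoter table gave a window that could be printed, so MCPH1-DT is not among them. RefSeq (GRCh38.p14) gave a window of 250 bases before to 50 after the start for 115 of the 147 members. The windows below lie at chr22:46296611-46296910 (GTSE1-DT), chr11:59142759-59143058 (FAM111A-DT), chr4:173169603-173169902 (GALNT7-DT), chr1:43358624-43358923 (CDC20-DT), chr5:137889270-137889569 (PKD2L2-DT), chr12:120640473-120640772 (CABP1-DT), chr14:96502277-96502576 (PAPOLA-DT) and chr19:32405490-32405789 (DPY19L3-DT), all on the minus strand. Capitals mark matches, on either strand, to GGGCGG for the GC box, CCAAT for the site of NF-Y, TATAAA for the TATA box, CCGGAAG for the core of ETS factor sites and TGCGCA for the core of NRF1 sites, and overlapping matches run together.
GTSE1-DT: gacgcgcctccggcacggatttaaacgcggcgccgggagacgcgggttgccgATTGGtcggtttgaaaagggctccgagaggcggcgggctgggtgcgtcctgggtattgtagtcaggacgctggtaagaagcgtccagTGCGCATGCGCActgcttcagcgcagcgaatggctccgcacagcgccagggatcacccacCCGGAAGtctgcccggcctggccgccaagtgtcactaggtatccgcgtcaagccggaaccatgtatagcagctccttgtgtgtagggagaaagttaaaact
FAM111A-DT: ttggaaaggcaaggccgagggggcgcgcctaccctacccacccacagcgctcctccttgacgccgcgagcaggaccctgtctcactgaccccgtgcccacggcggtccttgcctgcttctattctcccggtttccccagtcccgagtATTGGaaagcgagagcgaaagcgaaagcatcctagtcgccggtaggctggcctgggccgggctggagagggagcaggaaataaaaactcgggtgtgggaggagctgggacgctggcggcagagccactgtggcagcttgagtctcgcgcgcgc
GALNT7-DT: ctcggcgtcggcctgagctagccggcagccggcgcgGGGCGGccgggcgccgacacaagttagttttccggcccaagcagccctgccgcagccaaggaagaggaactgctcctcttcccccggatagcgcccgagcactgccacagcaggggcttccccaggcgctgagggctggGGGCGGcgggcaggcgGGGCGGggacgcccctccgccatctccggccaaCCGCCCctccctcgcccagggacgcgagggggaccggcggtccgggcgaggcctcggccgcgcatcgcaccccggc
CDC20-DT: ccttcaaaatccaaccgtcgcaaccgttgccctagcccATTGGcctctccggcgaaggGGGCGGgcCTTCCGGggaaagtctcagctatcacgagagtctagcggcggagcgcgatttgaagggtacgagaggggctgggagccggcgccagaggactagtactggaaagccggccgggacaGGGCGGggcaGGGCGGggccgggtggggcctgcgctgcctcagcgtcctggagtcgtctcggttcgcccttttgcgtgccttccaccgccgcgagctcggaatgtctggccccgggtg
PKD2L2-DT: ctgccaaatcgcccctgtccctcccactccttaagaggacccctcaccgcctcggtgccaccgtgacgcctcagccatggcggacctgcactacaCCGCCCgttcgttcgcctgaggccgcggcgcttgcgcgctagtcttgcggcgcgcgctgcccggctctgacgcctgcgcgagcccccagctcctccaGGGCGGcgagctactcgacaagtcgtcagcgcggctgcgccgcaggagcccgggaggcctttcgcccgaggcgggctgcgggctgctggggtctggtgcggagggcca
CABP1-DT: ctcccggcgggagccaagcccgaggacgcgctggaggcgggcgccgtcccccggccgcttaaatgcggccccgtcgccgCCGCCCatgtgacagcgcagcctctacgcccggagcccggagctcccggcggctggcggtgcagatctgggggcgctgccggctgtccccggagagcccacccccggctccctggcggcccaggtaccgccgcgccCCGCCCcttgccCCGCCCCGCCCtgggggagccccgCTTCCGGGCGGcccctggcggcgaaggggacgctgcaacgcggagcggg
PAPOLA-DT: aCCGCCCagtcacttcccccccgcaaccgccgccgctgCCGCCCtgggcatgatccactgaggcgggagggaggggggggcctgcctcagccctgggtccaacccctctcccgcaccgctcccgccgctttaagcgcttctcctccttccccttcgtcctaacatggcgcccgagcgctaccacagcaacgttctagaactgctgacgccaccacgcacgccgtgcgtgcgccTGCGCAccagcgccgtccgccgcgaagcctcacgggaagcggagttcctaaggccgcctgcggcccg
DPY19L3-DT: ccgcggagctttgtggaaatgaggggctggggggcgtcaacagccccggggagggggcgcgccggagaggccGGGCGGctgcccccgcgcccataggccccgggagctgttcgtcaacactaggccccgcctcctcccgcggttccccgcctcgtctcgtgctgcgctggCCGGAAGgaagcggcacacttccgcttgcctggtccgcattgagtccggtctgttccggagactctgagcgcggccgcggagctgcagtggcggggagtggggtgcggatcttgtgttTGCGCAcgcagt

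The 8 windows had no TATAAA, held between 25 and 42 CG dinucleotides each, and 6 of the 8 held a GC box. Over all 115 member windows the median was 31 CG and 69% G and C, against 31 CG and 68.2% in 128 windows of partners and 14 CG and 58.7% in all 34943 RefSeq promoter windows. A GC box was found in 78.3% of member windows, 78.1% of partner windows and 44.9% of all windows. The ETS core was found in 28.7%, 32% and 10.2%, and the NRF1 core in 20.9%, 20.3% and 8.19%. CCAAT was about as frequent everywhere, at 33%, 39.1% and 34.6%, and TATAAA was found in 4.35%, 6.25% and 11.6%. These are matches of letters and not binding sites, and members and partners share much of the same sequence. In the first 1000 bases downstream of the start, AATAAA, the polyadenylation hexamer, occurred on the transcribed strand of 47 members (32%), 21 partners (14.3%) and 17.8% of 11296 protein-coding genes. GGTAAG, a strong form of the 5′ splice site, occurred in 22.4%, 21.8% and 23.3%.

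Most members had few exons and started close to their partners. The canonical transcript had 1 exon in 37 members, 2 in 35, 3 in 35 and at least 4 in 40. In 122 members the canonical start lay within 500 bp of the partner's, with a median gap of 161 bp. The gene body overlapped the partner in 49 members and some gene in 88, and 59 overlapped none. Exons of 65 members overlapped those of another counted gene, by a median of 5.08% of their length and on the same strand in 2 cases. The median rate of opposite-strand reads seen elsewhere was 0.161% of the host's read density. At that rate such reads could make up 20.5% of the count of MVP-DT and 5.33% of that of NQO1-DT, so their values are uncertain. The 90th percentile of the rate was 2.64%. At such a rate the shares would be larger, also for other overlapping members such as TMED2-DT (2.82% at the median rate).

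Divergent RNAs were scarce beside their partners. Mean CPM ran from 0.508 to 49.0 with a median of 1.72 over members, whereas the median partner stood at 51.1. Per kilobase of exon, the median member reached 8.60% of its partner, and 14 members lay above theirs. Among the most abundant were CTBP1-DT (mean 49.0 CPM, partner a transcriptional corepressor), FAM151B-DT (34.9), SLC12A2-DT (23.9, partner the Na-K-Cl cotransporter), RNASEH1-DT (20.5, partner a nuclease of RNA-DNA hybrids), BAIAP2-DT (20.2, partner an organiser of membrane protrusions), NIPBL-DT (17.0, partner the cohesin loader) and TMEM161B-DT (15.1). FAM151B-DT far exceeded its partner, and 59.1% of its exon length lay opposite exons of ZFYVE16. Reads of the opposite strand at the median rate seen elsewhere would make up 0.0691% of its count. Just above the threshold stood C16orf95-DT (0.541), CABP1-DT (0.515) and LRRC8D-DT (0.508), and just below it RRAGC-DT (0.495), DOCK9-DT (0.493) and NUDT19-DT (0.479).

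The threshold on the mean did not select members that were on in a single group. Of the 147, 120 reached 0.5 CPM in all 4 groups, 27 were under it in 1 group or more, and 0 passed in a single group. Of these 27, 5 were under it in both parental groups and 3 in both resistant groups, so that their difference between the lines is tied to the threshold. Parental untreated was the group of highest level for 58 members and parental indisulam the lowest for 67. The median member stood at 1.90 and 2.02 CPM in the untreated and 1.40 and 1.33 CPM in the treated parental libraries, and at 1.59 and 1.77 and then 1.66 and 1.68 CPM in the resistant ones. Members under 0.5 CPM numbered 5 and 4, 16 and 21, 10 and 10, and 5 and 2 in the same order, so the treated parental libraries had the most.

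With indisulam, parental cells lost divergent RNAs while most partners rose slightly. Of 147 members, 75 were called by edgeR's quasi-likelihood test at an adjusted p under 0.05 (51%), beside 58.2% of all 16661 genes tested. Of these, 63 were lower and 12 higher, where all genes had 26.6% lower and 31.6% higher, that is 42.9% and 8.16% of members. A fall of more than 1 log2 unit was called for 24 members (16.3%, against 5.47% of all genes) and a rise of that size for 0. The median member changed by -0.19 on the log2 scale, and the median of all tested genes by 0.01. Of the 145 partners tested, 84 were higher (57.9%) and 24 lower (16.6%), with a median of 0.13. Protein-coding genes at 0.5 CPM or more had 43.1% higher and 26.1% lower, with a median of 0.07.

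**Figure D1:**
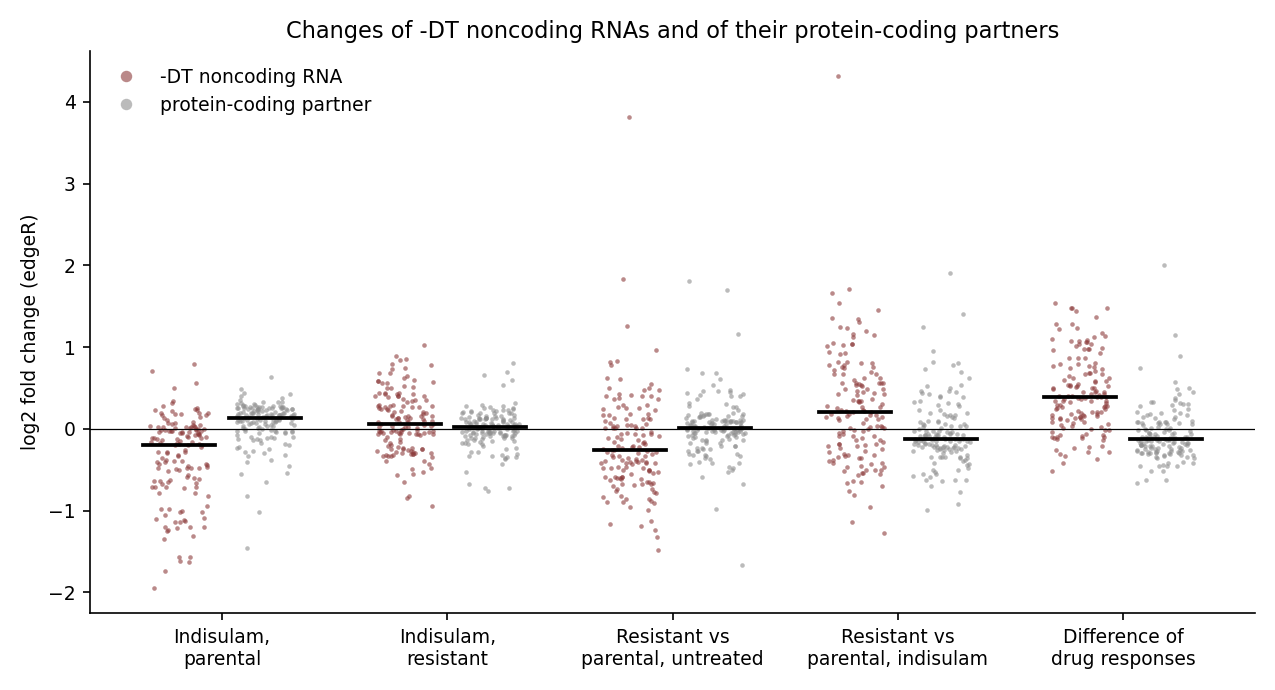
Each point is the log2 fold change (edgeR, y axis) of 1 divergent RNA (red, 147) or 1 protein-coding partner (grey, 145) in each comparison on the x axis, and black bars are medians. With indisulam in parental cells the medians were -0.19 and 0.13, and for the difference of drug responses (resistant minus parental) 0.39 and -0.12.

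The summed level fell less than the median member did. The members together summed to 646.1 and 645.2 CPM in parental untreated and 590.8 and 572.2 CPM with indisulam, a change of -9.93%. Without the 5 members of highest mean level, the sums were 486.7 and 487.4 against 410.0 and 396.3 CPM, a change of -17.2%. Among the 31 members with a mean of 5 CPM or more, 7 were lower and 6 higher with a median of -0.02, and among the 71 between 1 and 5 CPM, 38 were lower and 4 higher with a median of -0.35. The 45 members under 1 CPM gave 18 lower and 2 higher. The 59 members that overlap no other gene had 26 lower and 7 higher and a median of -0.23. The share of assignable reads that fell outside genes moved with these medians, at 5.81% and 5.94% without and 4.51% and 4.58% with the drug in parental libraries, and 4.43% and 5.11% without and 5.78% and 5.85% with it in resistant ones. Its part in the result was not tested.

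GALNT7-DT (chr4:173094868-173169652, minus strand) had the largest fall. Its partner encodes an enzyme of mucin-type O-glycosylation. In parental cells GALNT7-DT stood at 13.3 and 12.7 CPM untreated and 3.56 and 3.22 with indisulam, and in resistant cells at 13.2 and 13.4 and 7.30 and 7.75 CPM. The drug groups lay below the untreated groups in both lines without overlap, which naming required, and the treated parental libraries were the lowest. The log2 change in parental cells was -1.94 (SE 0.067, adjusted p = 7.9e-16), and that of GALNT7 was -0.13 (SE 0.029, adjusted p = 0.00046), from 166 and 164 to 151 and 150.4 CPM.

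CDC20-DT (chr1:43354684-43358676, minus strand) starts beside CDC20, the activator of the anaphase-promoting complex. It measured 1.90 and 1.66 CPM in parental untreated and 0.587 and 0.478 with indisulam, and 1.44 and 1.48 and then 1.10 and 1.31 in the resistant groups. The treated parental libraries were the only pair near 0.5 CPM. The parental change was -1.74 (SE 0.17, adjusted p = 7.1e-09), while CDC20 itself moved from 242 and 239 to 274 and 287 CPM, a log2 change of 0.22 (SE 0.03, adjusted p = 1.1e-06).

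TMCC1-DT (chr3:129893811-129918578, plus strand), beside a gene for a membrane protein of the endoplasmic reticulum, measured 0.685 and 0.908 CPM untreated and 0.253 and 0.258 with indisulam in parental cells, which were 75 and 97 and then 19 and 20 reads. The groups did not overlap, which naming required, and the log2 change was -1.63 (SE 0.24, adjusted p = 3.1e-06), against 0.16 for TMCC1. GOT1-DT (chr10:99430915-99463259, plus strand) starts beside the cytosolic aspartate aminotransferase and fell from 4.35 and 4.13 to 1.44 and 1.32 CPM, a log2 change of -1.62 (SE 0.12, adjusted p = 6.6e-11). GOT1 moved by 0.08 (adjusted p = 0.026). These 4 members of largest fall had 3 exons or more.

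The rises were smaller. GTSE1-DT (chr22:46295143-46296660, minus strand), a 1-exon RNA beside a microtubule-associated gene of late cell cycle, went from 0.585 and 0.608 to 1.01 and 1.05 CPM in parental cells and from 0.473 and 0.447 to 1.08 and 0.832 in resistant cells. Both treated groups lay above both untreated groups, and within each line naming required that they did not overlap. The log2 changes were 0.79 (SE 0.17, adjusted p = 0.00047) and 1.03 (SE 0.21, adjusted p = 0.0002), and those of GTSE1 were 0.27 and 0.69, also upward. FAM111A-DT (chr11:59130133-59143015, minus strand), beside a protease gene of DNA replication, went from 5.02 and 4.64 to 7.64 and 8.07 CPM, a change of 0.70 (SE 0.07, adjusted p = 1.3e-08), while FAM111A fell by 0.34 on the log2 scale (adjusted p = 2.7e-09). ATP6AP1-DT, beside an accessory subunit of the proton pump, went from 0.740 and 0.674 to 1.07 and 0.943 CPM, a change of 0.50 (SE 0.17, adjusted p = 0.013) that lost its call without parental untreated replicate 2 (0.44) and without parental indisulam replicate 1 (0.40).

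**Figure D2:**
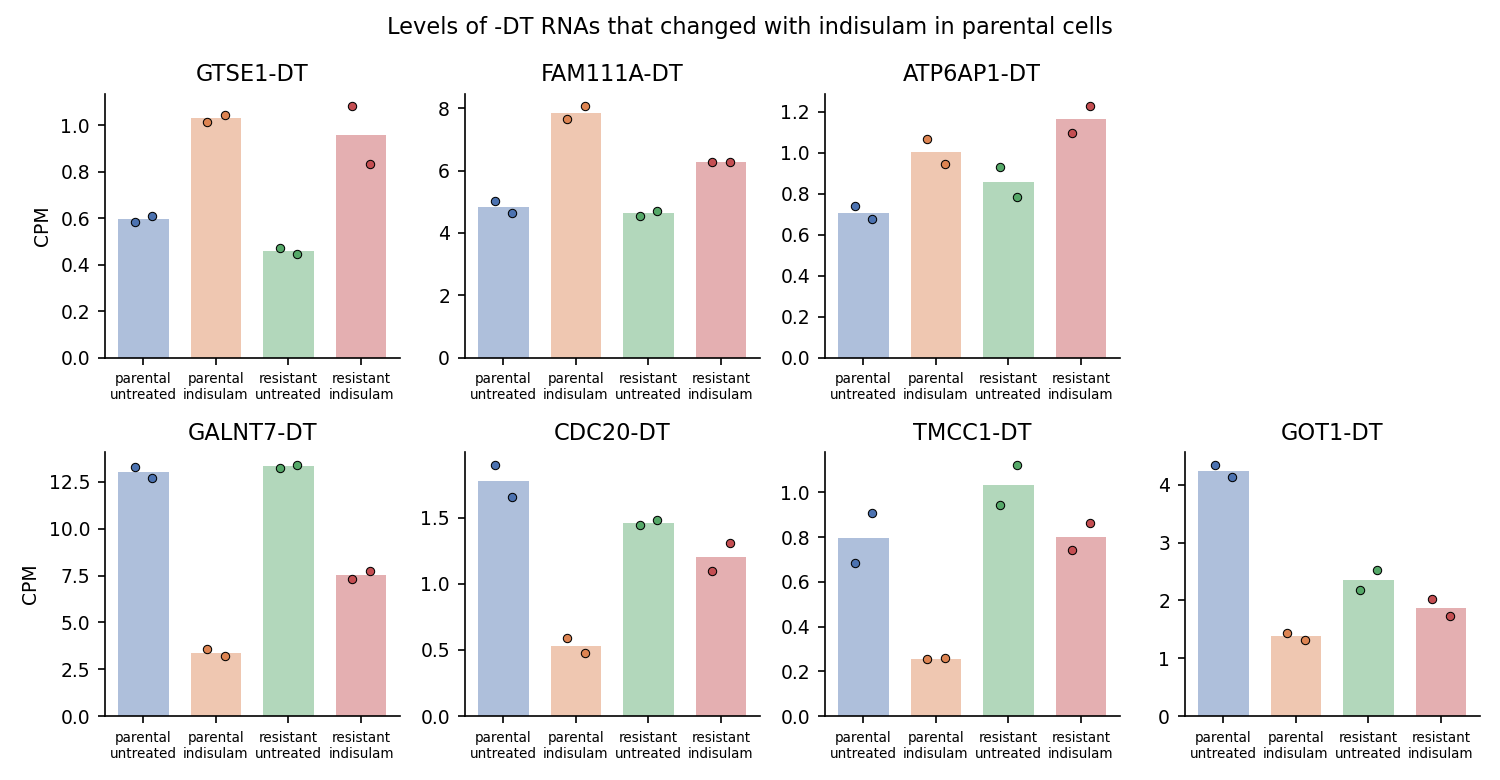
Bars are group means and points the 2 libraries of each group, in CPM (y axis, from 0), for 3 members that rose and the 4 of largest fall with indisulam in parental cells. GALNT7-DT fell from 13.3 and 12.7 to 3.56 and 3.22 CPM, and in each panel the untreated and treated parental libraries do not overlap, which naming required.

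The changes of members and partners showed no linear relation in this comparison. Across the 145 pairs, which share libraries and depth, Pearson's r of the log2 changes was -0.0887, and over the 59 pairs with no overlapping gene it was 0.0197. Both genes of a pair were called in 58 pairs, and in 41 of these the divergent RNA was lower and the protein-coding gene higher. In 7 both were lower, in 6 both higher and in 4 the divergent RNA was higher and the partner lower. Taken singly, 42.9% of members were called lower and 57.9% of partners higher, and the 41 pairs were not tested against these shares. The divergent RNA had the lower log2 change of the pair in 113 of 145 pairs.

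**Figure D3:**
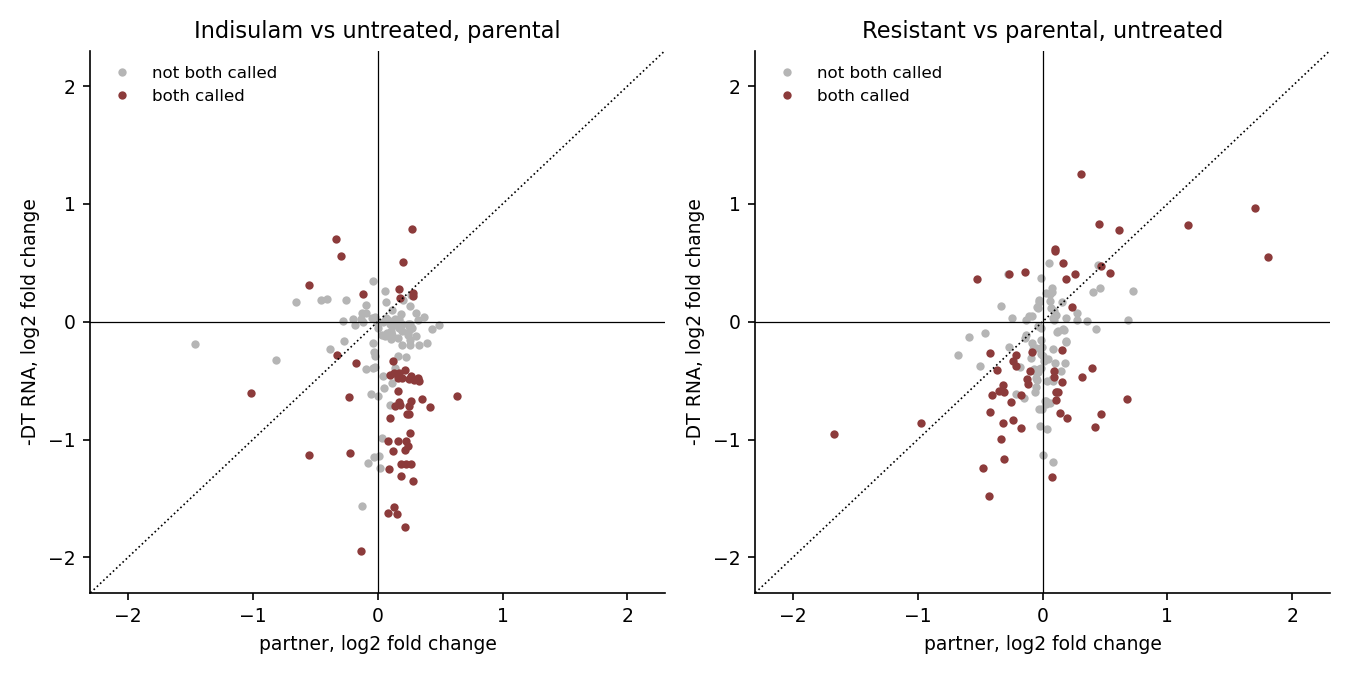
Each point is 1 of 145 pairs, with the log2 change of the protein-coding partner on the x axis and of the divergent RNA on the y axis (red where both were called, dotted line at equal change), for indisulam in parental cells (left) and for the lines off the drug (right). Of 58 red points on the left, 41 lie below 0 for the RNA and above 0 for the partner, and r was -0.0887 on the left and 0.451 on the right.

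The median change was lowest in members with the most exons, and no difference between exon classes was tested. Members of 1 exon had a median log2 change of -0.06 with 9 lower and 6 higher, those of 2 exons -0.18 with 13 and 2, those of 3 exons -0.19 with 16 and 2, and those of at least 4 exons -0.45 with 25 and 2. Carrying AATAAA in the first 1000 bases did not go with a deeper fall: the 47 members with it had a median of -0.11 (17 lower, 3 higher) and the 100 without it -0.22 (46 lower, 9 higher).

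Other noncoding classes had like values at the same threshold of 0.5 CPM, and no difference between classes was tested. Of 327 antisense (-AS) lncRNAs, 158 were lower and 37 higher with a median of -0.28, and of 130 intergenic LINC RNAs, 57 were lower and 14 higher with a median of -0.23. Protein-coding genes between 0.5 and 5 CPM, 1756 in all, had 568 lower and 227 higher and a median of -0.14, and all 11296 at 0.5 CPM or more a median of 0.07. A low level thus moved with the direction in coding genes too, and its part in the result was not tested.

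In resistant cells, more of the called divergent RNAs were higher with indisulam than lower. The test called 56 of 147 members (38.1%, against 50.7% of all genes), with 35 higher and 21 lower, where all genes had 24.9% and 25.8%. The median member changed by 0.06. Among the 37 members of 1 exon, 14 were higher and 1 lower with a median of 0.26, and among the 40 of at least 4 exons, 7 were higher and 12 lower with a median of -0.04. Partners had 42 higher (29%) and 34 lower (23.4%) with a median of 0.02, and r across pairs was 0.175. Protein-coding genes at 0.5 CPM or more had 27.9% higher and 34.1% lower, with a median of -0.02. With library totals in place of TMM scaling the split of members was 40 higher and 15 lower.

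ODC1-DT (chr2:10448654-10457693, plus strand) lies beside ornithine decarboxylase, the first enzyme of polyamine synthesis. It measured 1.44 and 1.25 CPM in resistant untreated and 2.58 and 2.45 with indisulam, against 1.71 and 1.90 and then 1.96 and 1.99 in parental cells. Only the treated resistant libraries stood above 2 CPM. The resistant change was 0.89 (SE 0.13, adjusted p = 3.7e-06) and that of ODC1 -0.05 (adjusted p = 0.14). INSIG1-DT (chr7:155295918-155297541, minus strand), beside the sterol sensor that holds SREBP processing in check, went from 2.16 and 1.79 to 3.53 and 3.62 CPM, a change of 0.85 (SE 0.11, adjusted p = 7.6e-07). INSIG1 went with it, from 18.8 and 15.6 to 29.5 and 30.7 CPM and by 0.80 (SE 0.072, adjusted p = 5.7e-06). C16orf95-DT went from 0.243 and 0.354 to 0.504 and 0.551 CPM, a change of 0.85 (SE 0.26, adjusted p = 0.0084) that lost its call without resistant untreated replicate 1 (0.59) and without resistant indisulam replicate 2 (0.77).

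Falls in resistant cells were found for SPOPL-DT, ZC3H12A-DT, GALNT7-DT and ING2-DT, all of which also fell in parental cells. SPOPL-DT, beside an adaptor of CUL3 ubiquitin ligases, went from 0.932 and 1.03 to 0.475 and 0.530 CPM, a log2 change of -0.95 (SE 0.2, adjusted p = 0.00043), and SPOPL did not pass the test (adjusted p = 0.97). ZC3H12A-DT, beside the RNA-degrading enzyme Regnase-1, went from 1.39 and 1.65 to 0.890 and 0.801 CPM, a change of -0.85 (adjusted p = 0.00024). GALNT7-DT changed by -0.82 and ING2-DT, beside a chromatin reader, by -0.65, from 2.12 and 2.08 to 1.42 and 1.27 CPM. The drug groups of these members did not overlap, which naming required.

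The drug responses of the 2 lines, which share no library, had 30 called members in common, 40% of the 75 in parental cells and 53.6% of the 56 in resistant cells. Over all genes tested these shares were 57.8% and 66.3%, and nothing is read from the overlap of the members. Of the 30, 15 were lower in both: ANKRD42-DT, COX10-DT, DPH5-DT, GALNT7-DT, GARS1-DT, GOT1-DT, ING2-DT, KLHL7-DT, MAP4K3-DT, RAB30-DT, RNF139-DT, SPOPL-DT, TMEM161B-DT, ZC3H12A-DT and ZFAND2A-DT. Another 9 were higher in both, among them ATP6AP1-DT, CNN3-DT, FAM111A-DT, GTSE1-DT, INSIG1-DT, MCPH1-DT, MIF4GD-DT and TBC1D22A-DT. The remaining 6, CAPN10-DT, GATD1-DT, MIOS-DT, SOCS3-DT, TRMT61A-DT and UBL7-DT, were lower in parental and higher in resistant cells, and 0 did the reverse. TMEM161B-DT was the most abundant of the 15, at 20.4 and 19.8 CPM in parental untreated and 9.26 and 9.31 with the drug, against 15.0 and 19.1 and 13.9 and 13.6 in resistant cells.

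The difference of the responses was tested as an interaction, resistant minus parental. Exposure differed as well, with 18 h on the drug in parental cells and unbroken culture against withdrawal in resistant cells. Line and exposure therefore cannot be told apart. The interaction was called for 70 members (47.6%, against 50.1% of all genes), 61 of them positive and 9 negative, where all genes had 22.7% positive and 27.5% negative. A difference above 1 log2 unit was called for 22 members (15%, against 7% of all genes). The median member differed by 0.39 and the median partner by -0.12. Of the partners, 24 were positive (16.6%) and 75 negative (51.7%). Protein-coding genes at 0.5 CPM or more had 21.7% positive and 39% negative, with a median of -0.07. Antisense and LINC RNAs had medians of 0.36 and 0.34. The called members with a mean under 5 CPM were all positive, 34 between 1 and 5 CPM and 14 under 1 CPM, while those of 5 CPM or more split into 13 positive and 9 negative.

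**Figure D4:**
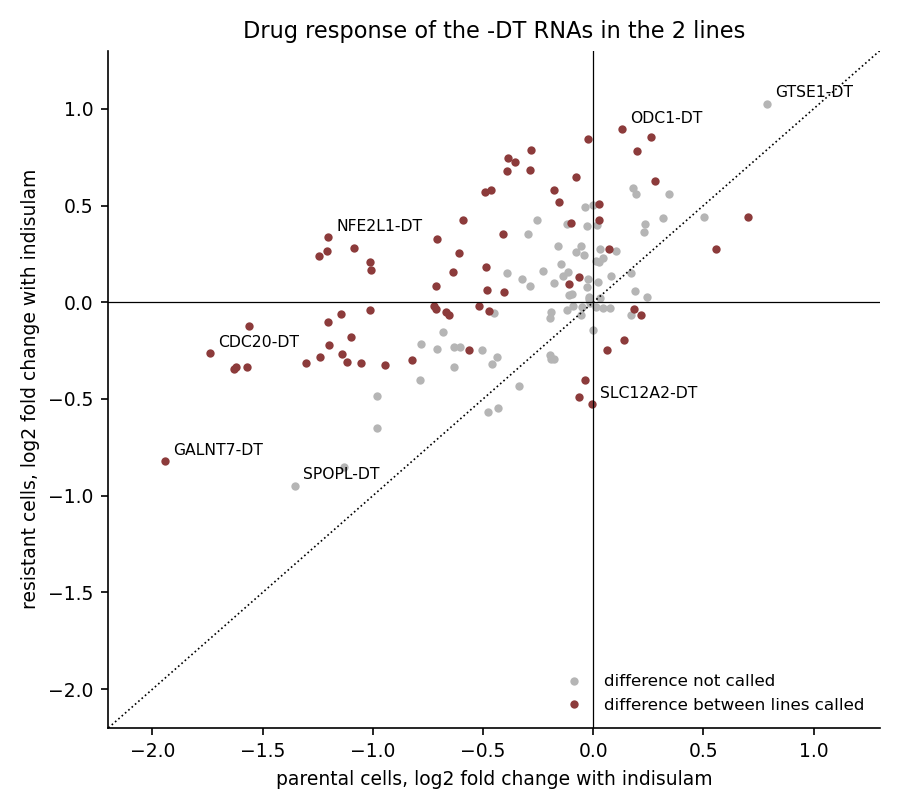
Each point is 1 of 147 divergent RNAs, with its log2 change with indisulam in parental cells on the x axis and in resistant cells on the y axis, red where the difference between the lines was called (70 members), and the dotted line marks equal responses. Of the red points, 61 lie above the line and 9 below it.

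NFE2L1-DT, beside a transcription factor of proteasome genes, had the largest difference. In parental cells it measured 0.959 and 0.889 CPM untreated and 0.453 and 0.349 treated, and in resistant cells 0.648 and 0.647 and 0.771 and 0.853 CPM. Only the treated parental libraries were under 0.5 CPM. The difference of responses was 1.54 (SE 0.27, adjusted p = 6e-05), and that of NFE2L1 was -0.11 (adjusted p = 0.022). ZNRD2-DT differed by 1.48 (SE 0.25, adjusted p = 2.9e-05) and CDC20-DT by 1.48 (SE 0.23, adjusted p = 1.4e-05). TMED2-DT, beside a cargo receptor of the early secretory pathway, went from 1.56 and 1.84 to 0.734 and 0.736 CPM in parental cells and from 1.46 and 1.57 to 1.96 and 1.71 in resistant cells, a difference of 1.47 (SE 0.21, adjusted p = 3.8e-06).

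The negative differences were smaller and belonged to more abundant members. SLC12A2-DT held at 25.5 and 24.3 and then 25.1 and 24.6 CPM in parental cells and went from 26.8 and 27.7 to 18.7 and 19.1 in resistant cells. The treated resistant libraries were the lowest, and the difference was -0.52 (SE 0.059, adjusted p = 1.7e-07), while SLC12A2 differed by 0.29 in the other direction (adjusted p = 6.5e-05). HK2-DT, beside hexokinase 2, differed by -0.42 (SE 0.097, adjusted p = 0.00086) and MOCS2-DT, beside a subunit of molybdopterin synthase, by -0.36 (SE 0.096, adjusted p = 0.0029). For GAS6-DT the difference was -0.34 (SE 0.13, adjusted p = 0.036), and it lost its call with a replicate block (adjusted p = 0.052) and without any 1 of 5 libraries: parental untreated replicate 2 (-0.24), parental indisulam replicate 2 (-0.17), resistant untreated replicate 1 (-0.26), and resistant indisulam replicate 1 (-0.30) or 2 (-0.34).

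Off the drug, more divergent RNAs were lower than higher in resistant cells. Of 147 members, 93 were called (63.3%, against 60.1% of all genes), 68 lower and 25 higher, that is 46.3% and 17%, where all genes had 29.9% lower and 30.3% higher. The median member differed by -0.26 on the log2 scale. By more than 1 unit, 6 were lower (4.08%, against 4.08% of all genes) and 3 higher (2.04%, against 6.93%). Partners split evenly, with 48 higher (33.1%) and 43 lower (29.7%) and a median of 0.01. Protein-coding genes at 0.5 CPM or more had 37.6% higher and 32.3% lower, with a median of 0.02. Here the changes of members and partners were positively correlated: r across 145 pairs was 0.451, and 0.452 over the 59 pairs with no overlapping gene. Few partners moved far, with 3 called higher and 1 lower by more than 1 unit, and how far r rests on such pairs was not tested. In 57 pairs both were called, 25 lower together, 14 higher together, 15 with the divergent RNA lower and the partner higher, and 3 the reverse.

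PKD2L2-DT (chr5:137809780-137889394, minus strand) had the widest difference between the lines, and like CABP1-DT it reached the threshold through the resistant libraries, so the differences of both are given as a description. It lies beside a gene of the polycystin channel family that had hardly any reads itself. PKD2L2-DT stood at 0.174 and 0.140 CPM in untreated and 0.133 and 0.0258 in treated parental libraries, and at 2.34 and 2.11 and 1.53 and 1.64 CPM in the untreated and treated resistant ones. All 4 resistant libraries lay far above all 4 parental libraries, which held 19 and 15 reads untreated and 10 and 2 reads treated. The log2 difference was 3.81 (SE 0.22) off the drug and 4.31 (SE 0.3) on it, and the second rests on few parental reads. CABP1-DT (chr12:120628830-120641591, minus strand), beside a neuronal calcium-binding protein gene that was likewise not tested, stood at 0.201 and 0.290 CPM in parental untreated and 0.918 and 0.832 in resistant untreated, a difference of 1.83 (SE 0.22). On the drug the difference was 1.72 (SE 0.25).

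ZC3H12A-DT was higher in the resistant line by 1.25 (SE 0.17, adjusted p = 9.6e-07), at 1.39 and 1.65 CPM against 0.530 and 0.739, where ZC3H12A differed by 0.30. SH3TC2-DT, beside a gene of endosomal recycling, was higher at 2.51 and 3.33 CPM against 1.44 and 1.53, a difference of 0.97 (SE 0.14, adjusted p = 5.4e-06), and SH3TC2 was higher by 1.70 (SE 0.035, adjusted p = 3.5e-22). Naming required that the groups of SH3TC2-DT did not overlap, and those of SH3TC2 did not either. GAS6-DT and GAS6, a ligand of TAM receptor kinases, also differed together, by 0.82 and 1.16.

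MCPH1-DT, beside the microcephalin gene of chromosome condensation, was the member furthest down in the resistant line. It measured 5.74 and 5.35 CPM in parental untreated and 1.93 and 2.05 in resistant untreated, and 7.15 and 6.33 against 2.98 and 3.13 on the drug. The difference off the drug was -1.48 (SE 0.098, adjusted p = 3.1e-12), and that of MCPH1 was -0.43 (adjusted p = 4e-09). PAPOLA-DT (chr14:96500810-96502321, minus strand), beside the canonical poly(A) polymerase, measured 1.93 and 2.02 against 0.878 and 0.693 CPM, a difference of -1.32 (SE 0.15, adjusted p = 7e-08), while PAPOLA differed by 0.07. DPY19L3-DT (chr19:32390050-32405560, minus strand), beside a C-mannosyltransferase gene, measured 1.22 and 1.17 against 0.50 and 0.508 CPM, a difference of -1.24 (SE 0.18, adjusted p = 3.2e-06), with DPY19L3 lower by -0.48. C16orf95-DT stood just above the threshold on the mean and under it in resistant untreated, so its difference is given as a description. The difference was -1.19 (SE 0.23), at 0.703 and 0.646 against 0.243 and 0.354 CPM. INSIG1-DT and INSIG1 were both lower in the resistant line, by -0.95 and -1.67.

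By exon number, the lowest median here was that of 1-exon members. This comparison shares the parental untreated libraries with the drug comparison, and no difference between the exon classes was tested. Members of 1 exon had a median of -0.50 with 24 lower and 2 higher, and those of at least 4 exons a median of 0.02 with 15 lower and 12 higher. Those of 2 and 3 exons lay between, at -0.26 and -0.17. Antisense and LINC RNAs had medians of -0.23 and -0.19, with 152 and 59 lower against 51 and 28 higher, whereas protein-coding genes between 0.5 and 5 CPM had a median of 0.08 with 447 lower and 661 higher.

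**Figure D5:**
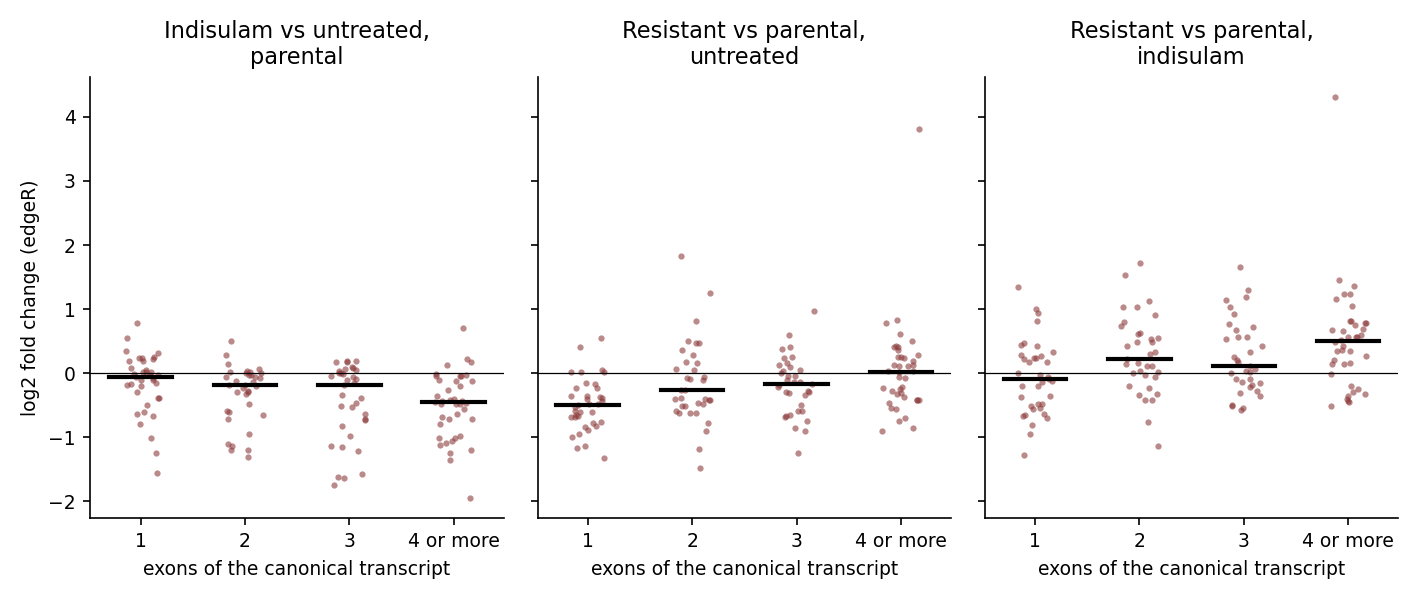
Log2 fold changes (y axis, edgeR) of the members by the number of exons of their canonical transcript (x axis: 37, 35, 35 and 40 members), with black bars at the medians, for indisulam in parental cells and for the lines off and on the drug. Medians ran from -0.06 to -0.45 in the left panel, from -0.50 to 0.02 in the middle and from -0.09 to 0.51 on the right.

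On the drug the balance of calls between the lines was the opposite. Most members called in both states kept their direction, with 22 higher in both and 26 lower in both of 67. Of 147 members, 96 were called (65.3%, against 69.5% of all genes), 64 higher in resistant cells and 32 lower, where all genes had 34.6% higher and 34.9% lower. By more than 1 log2 unit, 19 were higher (12.9%, against 12.4% of all genes) and 2 lower. The median member differed by 0.20 and the median partner by -0.12. Of the partners, 36 were higher (24.8%) and 77 lower (53.1%). Protein-coding genes at 0.5 CPM or more had 34.8% higher and 45.2% lower, with a median of -0.06. Pearson's r across 145 pairs was 0.331. Both genes were called in 75 pairs, 22 of them higher together and 23 lower together. In 26 the divergent RNA was higher and the partner lower, and in 4 it was the reverse. These counts were not tested against the shares of members and partners taken singly. Members of at least 4 exons had a median of 0.51 with 27 higher and 8 lower, and those of 1 exon -0.09 with 6 higher and 12 lower.

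After PKD2L2-DT and CABP1-DT, TMCC1-DT and ZC3H12A-DT stood furthest above the parental level on the drug. TMCC1-DT measured 0.742 and 0.863 CPM in resistant indisulam against 0.253 and 0.258 in parental indisulam, a difference of 1.66 (SE 0.25, adjusted p = 2.4e-06), and ZC3H12A-DT differed by 1.53 (SE 0.24, adjusted p = 4.9e-06). Among the members lower in resistant cells, MCPH1-DT differed by -1.14, PAPOLA-DT by -0.95 and WASL-DT, beside the actin regulator N-WASP, by -0.81, at 2.24 and 2.66 against 4.40 and 4.26 CPM. The groups of these 5 did not overlap, which naming required.

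The comparisons of the lines off and on the drug share no library and had 67 called members in common, 72% of the first list and 69.8% of the second, where all genes tested had 79.1% and 68.4%. Of the 67, 26 were lower in resistant cells in both, among them CTBP1-DT, NIPBL-DT, MCPH1-DT and PAPOLA-DT, and 22 were higher in both, among them BAIAP2-DT, GAS6-DT, PKD2L2-DT and ZC3H12A-DT. CTBP1-DT, the most abundant, measured 56.9 and 57.1 CPM in untreated and 61.8 and 58.5 in treated parental cells, against 37.2 and 38.3 and 42.0 and 41.1 CPM in untreated and treated resistant cells. Its level in resistant cells was lower in every library, by -0.59 and -0.54 on the log2 scale. BAIAP2-DT ran the other way, at 16.4 and 16.8 and 23.6 and 23.3 CPM off the drug, a difference of 0.50 (SE 0.049, adjusted p = 3.8e-09), where BAIAP2 differed by 0.05 (adjusted p = 0.23). Another 18 members were lower off the drug and higher on it, GOT1-DT and TMEM161B-DT among them, and SLC12A2-DT alone did the reverse.

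Of the factors known to act on divergent transcripts, in either direction, no gene of the 6 lists moved by 1 log2 unit in either drug comparison. Of all protein-coding genes at 0.5 CPM or more, 43.1% were higher and 26.1% lower with the drug in parental cells, and 27.9% and 34.1% in resistant cells. In parental cells the nuclear exosome had 6 of 13 genes higher and 3 lower, Integrator 10 of 15 higher and 4 lower, cleavage and polyadenylation 10 of 17 higher and 4 lower, and the U1 snRNP 6 of 8 higher and 2 lower. The exosome adaptors had 3 of 11 higher and 5 lower, and the factors of early termination and pausing 3 of 11 higher and 4 lower. In resistant cells with indisulam the exosome had 9 of 13 lower and 0 higher, the adaptors 6 of 11 lower and 0 higher, and cleavage and polyadenylation 8 of 17 lower and 1 higher. Integrator had 6 higher and 7 lower, the U1 snRNP 2 higher and 1 lower, and early termination 4 lower and 0 higher. Between the lines off the drug, the lists in the order exosome, adaptors, Integrator, cleavage, U1 snRNP and early termination had 4, 2, 2, 4, 1 and 4 genes higher in resistant cells and 4, 4, 4, 6, 3 and 3 lower. On the drug they had 1, 3, 2, 2, 2 and 4 higher and 10, 5, 12, 13, 6 and 5 lower. Of the same protein-coding genes, 37.6% were higher and 32.3% lower in resistant cells off the drug, and 34.8% and 45.2% on it.

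Some genes of these lists changed the same way with the drug in both lines. In the exosome these were EXOSC8, a core ring subunit, with -0.39 in parental and -0.33 in resistant cells, EXOSC2 with -0.14 and -0.30, and the nuclease EXOSC10 with -0.09 and -0.10. Among adaptors, NCBP1, the large cap-binding subunit, changed by -0.35 and -0.48, SRRT (ARS2) by -0.29 and -0.49, and ZFC3H1, of the poly(A) tail exosome targeting connection, by -0.30 and -0.12. INTS10 and the endonuclease INTS11 fell in both lines, by 0.31 and 0.39 in parental and by 0.41 and 0.26 in resistant cells, and INTS2 rose by 0.47 and 0.20. In cleavage and polyadenylation, PCF11, a termination factor, rose by 0.28 and 0.28, while CPSF1 changed by -0.28 and -0.24 and CSTF2 by -0.14 and -0.28. LUC7L, associated with the U1 snRNP, rose by 0.51 and 0.25 and LUC7L2 by 0.16 and 0.10. In the list of early termination and pausing, NELFCD changed by -0.14 and -0.37 and CDK9 by -0.15 and -0.08. These are RNA levels of the factors and were not related to the divergent RNAs here.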

How the data were processed

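RNA sequencing counts of 8 libraries were used. Per the labels and the study's methods, the authors made stranded libraries from polyadenylated RNA, used SeqPurge for trimming and HISAT2 2.2.1 for alignment to GRCh38. Their processing notes also name Picard and HTSeq. The counter's strand setting and annotation release are not given in the sources used here. The deposited values are raw read counts per Ensembl gene, followed by 9 lines of unassigned reads, which were left out of totals and tests. GENCODE release 44 matched 60419 of 60675 gene IDs.

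The strand setting was checked on the counts. Of 291 genes lying inside opposite-strand exons of a host over 20 CPM, 232 had a read, against 20 of 365 genes inside same-strand exons, so the counting kept strands apart. The median density of the former was 0.161% of the host's, and the 90th percentile was 2.64%.

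All 8 libraries entered 1 model, with a mean for each of the 4 groups, in edgeR 4.0.16 (R 4.3.3) with TMM scaling (factors 0.962 to 1.03), filterByExpr (16661 genes kept, 147 of 147 members) and robust quasi-likelihood tests with 4 residual degrees of freedom. P-values were adjusted by Benjamini-Hochberg over all genes tested, and a call means an adjusted p under 0.05. Printed CPM values are scaled by TMM, apart from the mean CPM of the membership rule. For each comparison, called members whose groups did not overlap were ranked by change, and the top 4 of each direction were named (for the difference of responses, whose same-numbered log2 differences did not overlap), with the 8 of highest mean level, the 3 genes on each side of the threshold and their partners, except that 1 member the rule names is not reported here. Promoters were printed for the first 2 of each direction in 2 comparisons that the table holds. Other genes were chosen after their values were seen. Of each pathway list, at most 3 genes called in the same direction with the drug in both lines were named. The members and lists were chosen with earlier results of these data known. Steps were tested on simulated data.

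Same-numbered libraries did not deviate together (correlations of -0.0571 to 0.0234 over the 6 pairs of groups), so the numbers were not taken to pair them. Alternatives covered scaling, DESeq2 1.42.0, filters on low counts, the groups in the fit, a replicate block, a minimum effect, depth and leaving out each library.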

Additional observations from a re-analysis of the deposited data

Results flagged for a closer look

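The drug response of 70 members differed between the resistant and the parental line by edgeR's interaction test, and values below are log2 differences, resistant minus parental. The lines also differed in their exposure to the drug, and the parts of line and exposure cannot be told apart. Among members named above, the response was higher in resistant cells for NFE2L1-DT (1.54), ZNRD2-DT (1.48), CDC20-DT (1.48), TMED2-DT (1.47), TMCC1-DT (1.29), GOT1-DT (1.29), LRRC8D-DT (1.13), GALNT7-DT (1.12), DPY19L3-DT (1.08), C16orf95-DT (0.87), TMEM161B-DT (0.81), ODC1-DT (0.76), INSIG1-DT (0.59), MCPH1-DT (0.35) and NIPBL-DT (0.19). It was lower for SLC12A2-DT (-0.52), HK2-DT (-0.42), MOCS2-DT (-0.36), GAS6-DT (-0.34), RNASEH1-DT (-0.31), FAM111A-DT (-0.26) and FAM151B-DT (-0.22). NFE2L1 codes for a proteasome regulator and LRRC8D for a subunit of the volume-regulated anion channel. LRRC8D-DT went from 0.630 and 0.552 to 0.440 and 0.465 CPM in parental cells and from 0.338 and 0.400 to 0.578 and 0.645 CPM in resistant cells.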

How the results depend on the processing

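The rarest members rest on the fewest reads, each group holds 2 libraries, and the part of depth in their values was not tested. Of the 40 named changes, 0 changed sign under any alternative and 11 lost their call under at least one, 8 of them only against a minimum log2 change of 0.5. Against that minimum (glmTreat), members called higher and lower numbered 1 and 26 for indisulam in parental cells, 5 and 1 in resistant cells, 6 and 21 for the lines off the drug, 30 and 6 on it, and 20 and 0 for the difference of responses. DESeq2's Wald test called 23 higher and 13 lower in resistant cells, 45 lower between the lines off the drug and 40 positive differences. In parental cells the 12 higher became 7 where genes needed a mean of 1 CPM and 7 where libraries were thinned to the smallest. Library totals without TMM gave 5 negative differences of responses, and shifted the median difference of all tested genes by 0.12. Leaving out 1 library gave 7 to 12 higher (7 without parental untreated replicate 2) and 53 to 68 lower for parental cells, 28 to 34 and 14 to 21 for resistant cells, 21 to 27 and 50 to 67 off the drug, 53 to 71 and 27 to 33 on it, and 49 to 61 positive and 7 to 9 negative differences. With a replicate block, the counts were 12 and 63, 32 and 21, 25 and 68, 63 and 31, and 59 and 7, and the difference for GAS6-DT lost its call (adjusted p = 0.052 by edgeR, which ran from 0.052 to 1 over the settings that lost it). The cause of these shifts was not tested. Counted over the 120 members at 0.5 CPM in all 4 groups, a choice made after seeing the data, higher and lower calls in the same order were 11 and 52, 29 and 18, 18 and 57, 48 and 30, and 51 and 9.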
